A study of Homo sapiens with 6 samples.

Results

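The cell cycle cyclins measured here were 10 genes: CCND1, CCND2, CCND3, CCNE1, CCNE2, CCNA1, CCNA2, CCNB1, CCNB2 and CCNF. They were taken by name from the 21447 genes to which the deposited transcripts could be matched and were ordered by the phase of the cell cycle in which each acts. Of the 10 genes, 9 had enough counts to be among the 14323 genes tested, and CCNA1 did not. RNA was sequenced in bulk from U-2 OS cells, a human osteosarcoma line, that were unsynchronized and either left untreated (3 libraries) or given a 4 Gy dose of ionizing radiation (IR) and collected after 24 h (3 libraries). The labels give no further treatment or genetic change for either group, and the study calls its triplicates independent samples without saying whether they came from separate cultures, so that P values measure only the spread between these libraries.

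Cyclins are the regulatory subunits of cyclin-dependent kinases (CDKs), and they are named for the rise and fall of their abundance with each division. D-type cyclins bind CDK4 and CDK6 in G1 and start the phosphorylation of the retinoblastoma protein, E-type cyclins bind CDK2 at entry into S phase, cyclin A2 acts in S phase and G2, and B-type cyclins bind CDK1 for mitosis. Cyclin F binds no known CDK and is instead the substrate-binding subunit of a ubiquitin ligase. After DNA damage, p53 induces CDKN1A, which encodes p21, an inhibitor of these kinases.

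Sequencing depth was similar in 5 libraries, at 18573309 to 22953834 estimated counts, whereas IR replicate 3 held 45308792. IR replicate 3 also stood apart in its values. In CPM, counts scaled to a common library total, 10135 genes averaged 10 or more, and over these the median absolute log2 difference to the other IR libraries was 0.157 and 0.129, against 0.0838 between IR replicates 1 and 2 and 0.0635 to 0.103 among the untreated libraries. Cyclin log2 fold changes that move by over 1.5 times without this library are given both ways. The markers VIM, COL1A1, SPARC and FN1 of the labelled mesenchymal line were abundant, while COL1A2 and TWIST1 were at or near 0. RUNX2, an osteoblast transcription factor of the same list of 9, was called lower (15.8 against 12.3 CPM, log2 fold change −0.36), a call lost in 5 of 14 alternative settings. The summed CPM of 8 markers of epithelial, blood, endothelial and liver cells was 12.9 to 14.2 in untreated and 13.3 to 15.6 in IR libraries, with CD3E and ALB at 0 in each library. Of these 8, CDH1 was called higher at a low level (2.07 against 3.19 CPM), a call lost in 11 of 14 alternative settings. The part of RUNX2 and CDH1 in the results was not tested. CDKN1A rose by 1.53 on the log2 scale and MDM2, another p53 target, by 0.60 (adjusted P = 2.82e-05 and 0.000291, edgeR's quasi-likelihood test with Benjamini–Hochberg adjustment), with no overlap between the groups for either gene.

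Irradiated cells held more CCND1 and CCND2 RNA and less CCNE2, CCNA2 and CCNF RNA than untreated cells, and CCND3, CCNE1, CCNB1 and CCNB2 did not pass the test. The called genes, that is, those with an adjusted P below 0.05 in edgeR's quasi-likelihood test with Benjamini–Hochberg adjustment over 14323 genes, were thus 2 higher and 3 lower of the 9 tested cyclins. Over all tested genes, 15.5% were called higher and 14.5% were called lower. The CPM values of the groups, scaled by the trimmed mean of M values (TMM), did not overlap for 6 of 9 cyclins, against 47.1% of all tested genes. The median log2 fold change was −0.02 over the 9 cyclins and 0.01 over all tested genes. In RNA from whole cultures, fewer cells in a given phase and less RNA per cell cannot be told apart, and this holds for each gene below.

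**Figure D1:**
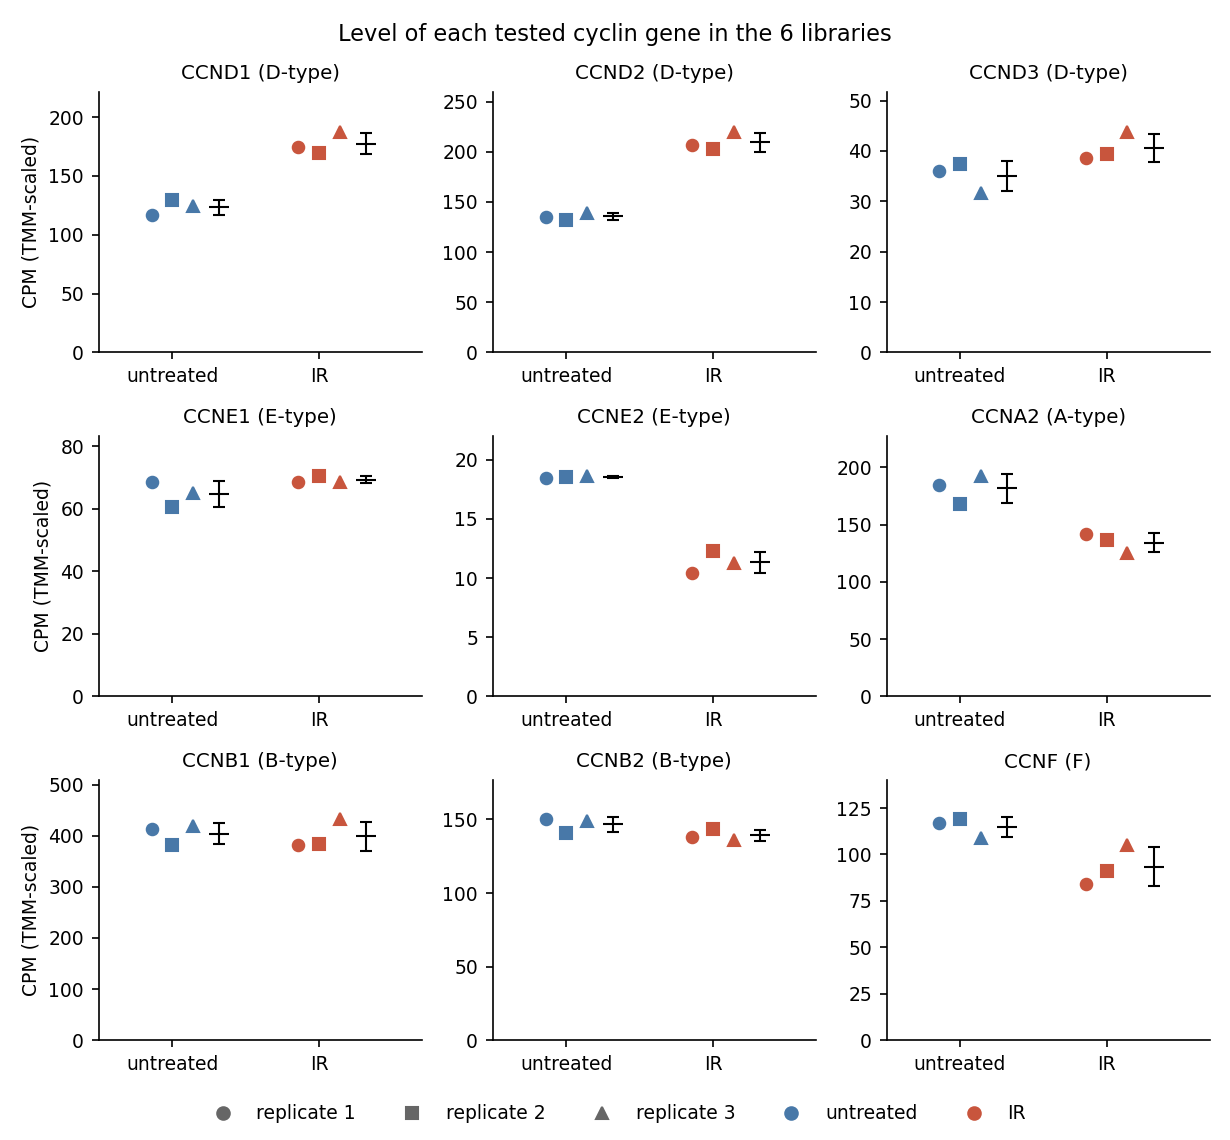
Level of each tested cyclin gene in TMM-scaled CPM (y axis, from 0) in untreated (blue) and IR (red) libraries. Marker shapes give the replicate and black bars give the mean ± SD of 3 libraries. CCND1 and CCND2 lie higher in each IR library than in any untreated library, CCNE2, CCNA2 and CCNF lie lower, and the groups overlap for CCNE1, CCNB1 and CCNB2.

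The D-type cyclins link growth signals to the cell cycle. CCND1 (ENSG00000110092, chr11:69641156-69654474, plus strand, GRCh38) was measured at 116.5, 129.1 and 124.6 CPM in untreated replicates 1 to 3 and at 174.9, 169.7 and 187.5 CPM in IR replicates 1 to 3. Each IR library was above each untreated library. This was a log2 fold change of 0.52 (SE 0.07, 95% confidence interval (CI) 0.37 to 0.68, adjusted P = 0.000916, edgeR's quasi-likelihood test), a 1.44-fold higher level.

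CCND2 (ENSG00000118971, chr12:4269771-4305353, plus strand), which encodes another partner of CDK4 and CDK6, gave 135.2, 131.9 and 139.3 CPM in untreated and 206.2, 202.2 and 219.9 CPM in IR libraries. The groups were again apart, and the spread within each was small (SD 3.69 and 9.29 CPM, n = 3 each). With a log2 fold change of 0.63 (SE 0.06, 95% CI 0.49 to 0.77, adjusted P = 0.000291, edgeR's quasi-likelihood test), CCND2 had the largest rise of the 9 cyclins. Without IR replicate 3, the log2 fold changes of CCND1 and CCND2 were 0.47 and 0.58, and both remained called.

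CCND3 (ENSG00000112576, chr6:41934934-42050357, minus strand) encodes the third D-type cyclin, and gave 36.07, 37.46 and 31.62 CPM in untreated and 38.53, 39.42 and 43.82 CPM in IR libraries. The IR libraries lay above the untreated ones by a narrow margin. The log2 fold change of 0.22 (95% CI 0.02 to 0.41) was not called (adjusted P = 0.0873, edgeR's quasi-likelihood test), and it was 0.14 without IR replicate 3 and −0.03 when the GC content trend was removed from each library. The log2 ratio of CCND2 to CCND3 within a library, a measure added after these values were seen, was 1.91, 1.82 and 2.14 in untreated and 2.42, 2.36 and 2.33 in IR libraries. The ratios did not overlap, and their means differed by 0.41 (exact two-sided permutation test, P = 0.1, the smallest value that 3 libraries against 3 can give).

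Of the 2 E-type genes, whose products activate CDK2, 1 was called. For CCNE1 (ENSG00000105173, chr19:29811991-29824312, plus strand), 68.63, 60.51 and 64.99 CPM in untreated libraries stood against 68.59, 70.56 and 68.62 CPM in IR libraries. IR replicates 1 and 3 fell just below the highest untreated library, so the groups overlapped. CCNE1 had a log2 fold change of 0.10 (SE 0.07, 95% CI −0.05 to 0.25, adjusted P = 0.302, edgeR's quasi-likelihood test), and the interval leaves room for a rise of up to 0.25 but not for one as large as that of CCND1.

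CCNE2 (ENSG00000175305, chr8:94879770-94896678, minus strand) fell. Its values were 18.45, 18.51 and 18.67 CPM in untreated and 10.46, 12.25 and 11.31 CPM in IR libraries, so that the lowest untreated value was well above the highest IR value. The log2 fold change of −0.71 (SE 0.09, 95% CI −0.92 to −0.50, adjusted P = 0.000925, edgeR's quasi-likelihood test) was a decrease of 38.9%, the largest change in either direction among the 9 tested cyclins with no GC correction. The log2 ratio of CCNE2 to CCNE1, also added after the values were seen, was −1.90, −1.71 and −1.80 in untreated and −2.71, −2.53 and −2.60 in IR libraries. It differed by −0.81 between the groups without overlap (exact two-sided permutation test, P = 0.1, the smallest value possible here).

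The size of the CCNE2 change moved with the handling of sequence and length. It was −0.52 with the GC trend removed and −1.02 with an offset for the mean effective transcript length of the gene in each library, and it was called under both. With the GC trend removed, the change of CCND2 was the larger in size, at 0.70.

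Promoter sequences are shown for CCNA2, CCNB1, CCNB2 and CCNF because these 4 genes are known for expression late in the cycle, for which CCAAT boxes and cell cycle genes homology region (CHR) elements are the textbook promoter elements, yet they differed here in whether a change was called. RefSeq windows of the GRCh38.p14 build were at hand for 7 of the 10 cyclins, and the 250 bases before the start are printed 5′ to 3′ on the strand of the gene, for CCNA2 from chr4:121823884-121824133 (minus strand), for CCNB1 from chr5:69166900-69167149, for CCNB2 from chr15:59104896-59105145 and for CCNF from chr16:2429197-2429446 (plus strands). Capitals mark the forms of the CHR element that were searched, TTTGAA and TTCGAA, and CCAAT on either strand (ATTGG where it lies on the other strand).
CCNA2: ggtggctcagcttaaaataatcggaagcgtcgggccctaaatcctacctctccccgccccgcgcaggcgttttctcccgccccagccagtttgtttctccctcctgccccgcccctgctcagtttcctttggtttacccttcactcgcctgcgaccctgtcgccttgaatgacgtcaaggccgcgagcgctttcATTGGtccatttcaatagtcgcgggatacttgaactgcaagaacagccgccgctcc
CCNB1: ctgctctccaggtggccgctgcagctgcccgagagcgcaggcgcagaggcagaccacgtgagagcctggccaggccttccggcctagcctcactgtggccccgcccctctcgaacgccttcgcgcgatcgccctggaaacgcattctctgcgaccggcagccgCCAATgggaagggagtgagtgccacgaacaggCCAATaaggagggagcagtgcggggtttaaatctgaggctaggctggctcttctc
CCNB2: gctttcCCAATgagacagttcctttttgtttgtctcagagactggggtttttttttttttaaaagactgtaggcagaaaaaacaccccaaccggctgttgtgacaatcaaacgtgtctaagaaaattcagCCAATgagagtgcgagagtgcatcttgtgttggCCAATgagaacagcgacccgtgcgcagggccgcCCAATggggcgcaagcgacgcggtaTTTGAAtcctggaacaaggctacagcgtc
CCNF: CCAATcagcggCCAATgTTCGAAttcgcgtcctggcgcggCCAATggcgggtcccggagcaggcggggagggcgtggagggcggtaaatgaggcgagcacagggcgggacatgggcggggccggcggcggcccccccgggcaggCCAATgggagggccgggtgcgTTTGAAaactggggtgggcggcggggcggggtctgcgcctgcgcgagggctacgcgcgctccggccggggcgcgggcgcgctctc

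The windows differed in their matches. Positions are counted back from the annotated start. CCNA2 had 1 CCAAT, on the other strand at −56, and CCNB1 had 2, at −87 and −55. CCNB2 had 4 CCAAT, at −244, −120, −87 and −54, with TTTGAA at −29, and CCNF had 4, at −250, −239, −210 and −106, with TTCGAA at −233 and TTTGAA at −85. Neither TTTGAA nor TTCGAA was in the CCNA2 and CCNB1 windows, and other forms of the CHR element were not searched. Of 35116 windows of the same kind (250 bases before to 50 bases after the start), 34.6% held CCAAT, 10.8% held it at least 2 times, 15.2% held TTTGAA and 1.45% held TTCGAA, each counted on both strands. The E2F motifs TTTCCCGC, TTTCGCGC, TTTGCCGC and TTTGGCGC were in none of the cyclin windows at hand, against 3.31% of all windows. Only these exact forms were searched, so other forms of the E2F site could be missed. For CCND1, CCND2 and CCNE2 no window was at hand. In the other windows, CCAAT occurred once in 2 of the 3 windows of CCND3, and neither CCNE1 nor CCNA1 had a match to any motif searched. The matches found do not overlap each other. A match is a description of the letters and does not show that a factor was bound.

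CCNA2 (ENSG00000145386, chr4:121816444-121823883, minus strand) encodes the cyclin of S phase and G2 and fell. It was measured at 184.4, 167.8 and 192.9 CPM in untreated and at 141.4, 136.2 and 125.0 CPM in IR libraries. The lowest untreated library exceeded the highest IR library. Its log2 fold change of −0.44 (SE 0.08, 95% CI −0.61 to −0.27, adjusted P = 0.00280, edgeR's quasi-likelihood test) was a decrease of 26.2%. It was −0.32 with the GC trend removed and −0.40 without IR replicate 3, and was called in both. CCNA1 (ENSG00000133101, chr13:36431520-36442870, plus strand), the A-type cyclin known from the germ line, had 1 estimated count in untreated replicate 1 and 0 in each other library, where a count of 0 allows up to 3 counts, so no change could be tested at this depth.

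The B-type genes, whose products drive entry into mitosis with CDK1, showed no called change. CCNB1 (ENSG00000134057, chr5:69167135-69178245, plus strand) gave 413.0, 381.6 and 419.6 CPM in untreated and 381.8, 383.9 and 432.5 CPM in IR libraries, and the highest value of all was in IR replicate 3. The log2 fold change was −0.02 (SE 0.07, 95% CI −0.18 to 0.14, adjusted P = 0.868, edgeR's quasi-likelihood test), and its sign turned in 5 of 14 alternative settings, between −0.09 (without IR replicate 3) and 0.08 (with the GC trend removed).

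CCNB2 (ENSG00000157456, chr15:59105126-59125045, plus strand) gave 150.1, 140.7 and 149.2 CPM in untreated and 138.4, 143.2 and 135.8 CPM in IR libraries. The groups overlapped through IR replicate 2. Its log2 fold change of −0.08 (SE 0.06, 95% CI −0.21 to 0.06, adjusted P = 0.372, edgeR's quasi-likelihood test) was not called in any of 14 alternative settings.

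Relative to both B-type genes of the same library, CCNA2 was lower after IR. The log2 ratio of CCNA2 to CCNB1 was −1.16, −1.19 and −1.12 in untreated and −1.43, −1.49 and −1.79 in IR libraries, and that of CCNA2 to CCNB2 was 0.30, 0.25 and 0.37 in untreated and 0.03, −0.07 and −0.12 in IR libraries. Neither ratio overlapped between the groups. The means differed by −0.42 and −0.36 (exact two-sided permutation tests, P = 0.1 for each, the smallest value possible), and by −0.31 and −0.33 without IR replicate 3. These are 2 of 4 ratios computed, all of them added after the values were seen, and none of the 4 can pass a threshold of 0.05 in this design.

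CCNF (ENSG00000162063, chr16:2429394-2458854, plus strand), whose protein marks substrates for degradation in S phase and G2, was measured at 117.0, 118.9 and 108.8 CPM in untreated and at 84.24, 90.94 and 105.0 CPM in IR libraries. IR replicate 3 came close to the lowest untreated library, and the other IR libraries lay clearly below. The log2 fold change was −0.30 (SE 0.09, 95% CI −0.49 to −0.11, adjusted P = 0.0266, edgeR's quasi-likelihood test). This was the least stable of the called changes. It was lost in 6 of 14 alternative settings, namely with the length offset (−0.24, adjusted P = 0.218), with a replicate block (−0.30, adjusted P = 0.0503) and without untreated replicate 1 or 2 or IR replicate 1 or 2 (−0.28, −0.27, −0.24 and −0.28, adjusted P = 0.0583 to 0.0948), all in edgeR's quasi-likelihood test. It was −0.40 without IR replicate 3 and −0.47 with the GC trend removed, in both of which it was called.

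**Figure D2:**
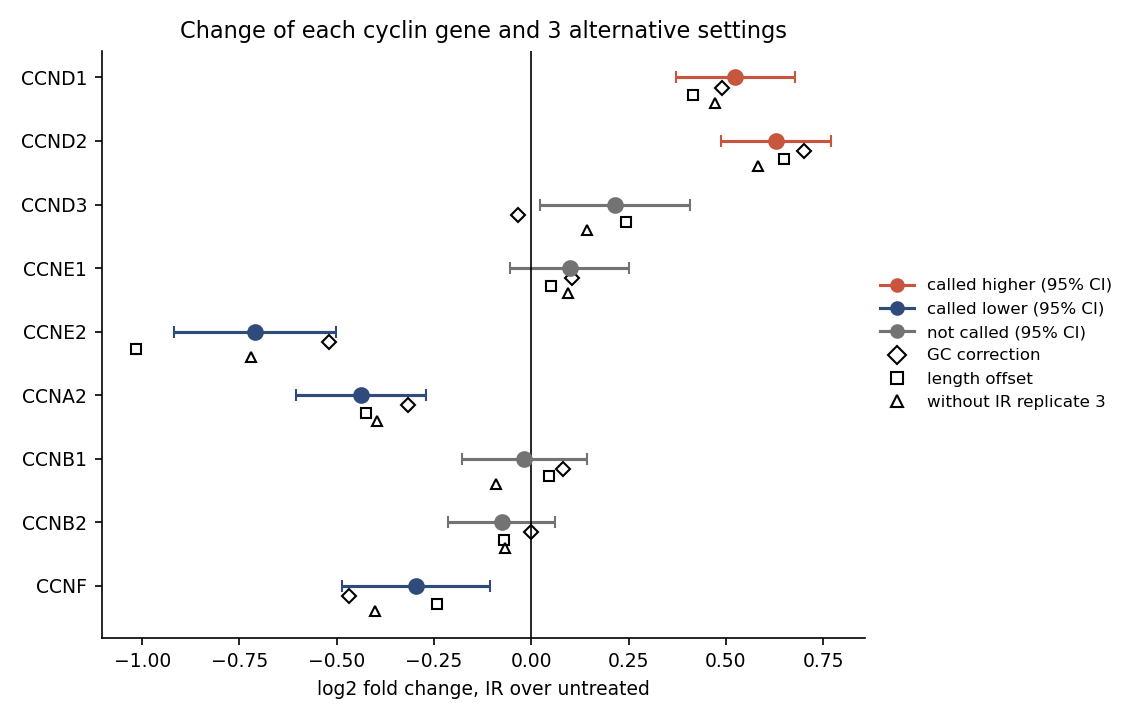
Log2 fold change of IR over untreated (x axis) for each tested cyclin gene (rows), with its 95% CI, coloured by whether it was called higher, lower or not called. Open symbols give the same value with the GC trend removed (diamond), with a length offset (square) and without IR replicate 3 (triangle). CCND1 and CCND2 stay right of 0 and CCNE2, CCNA2 and CCNF left of 0 under each of them, while CCND3 and CCNB1 cross 0.

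Levels of different genes can be compared only per transcript length, for which the deposited TPM values, scaled for transcript length and library total, were summed per gene. In untreated cells CCNB1 was by far the most abundant at 620 ± 41.5 TPM (SD, n = 3 here and below), followed by CCNB2 at 157 ± 6.71, CCNA2 at 110 ± 7.47, CCNE1 at 57.9 ± 2.50 and CCND1 at 41.2 ± 5.10 TPM. Below them lay CCNF at 27.5 ± 1.17, CCND2 at 26.2 ± 0.161, CCNE2 at 18.8 ± 2.33 and CCND3 at 18.7 ± 3.08 TPM. The ranges of CCNF and CCND2 overlapped, as did those of CCNE2 and CCND3, and no other neighbours in this order overlapped.

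After IR the lower part of the order changed. CCND2 stood at 39.9 ± 5.39 TPM, above CCNF at 22.6 ± 4.99 and CCND3 at 21.5 ± 3.69 TPM, whose ranges overlapped, and CCNE2 was last at 8.98 ± 1.06 TPM. CCND1 at 53.3 ± 5.72 TPM now overlapped CCNE1 at 57.9 ± 3.02 TPM. The upper part kept its order, with CCNB1 at 622 ± 114, CCNB2 at 144 ± 3.35 and CCNA2 at 78.9 ± 4.14 TPM. For CCNB1 the wide spread came from IR replicate 3, at 752 TPM against 571 and 543 TPM in IR replicates 1 and 2.

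The TPM of the 10 genes summed to 1084, 1034 and 1110 in untreated and 998, 948 and 1202 in IR libraries, and this sum was divided among the cyclin types. D-type cyclins held 8.24%, 8.93% and 6.93% in untreated and 11.2%, 10.8% and 10.9% in IR libraries, with each IR library higher by at least 1 percentage point than any untreated one. A-type cyclins held 10.2%, 9.81% and 10.5% in untreated and 8.32%, 7.89% and 6.56% in IR libraries, and here each IR library was lower. The means differed by 2.90 percentage points for the D-type and by −2.58 for the A-type (exact two-sided permutation tests, P = 0.1 for each, the smallest value possible). With only the leading transcript of each gene, the D-type difference was 5.18 percentage points.

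B-type cyclins made up most of the sum in each library, at 71.1% to 73.4% in untreated and 71.6% to 74.9% in IR libraries, and the ranges overlapped (difference of the means 0.77 percentage points, P = 0.6, exact two-sided permutation test). That difference was −0.23 without IR replicate 3 and −1.12 when only the leading transcript of each gene was used, so it has no settled sign. E-type cyclins held 7.13% ± 0.308 in untreated and 6.46% ± 0.989 in IR libraries (P = 0.4 for 3 libraries against 3, exact two-sided permutation test). Their difference of −0.67 percentage points shrank to −0.10 without IR replicate 3. Cyclin F held 2.58%, 2.75% and 2.36% in untreated and 1.97%, 2.09% and 2.36% in IR libraries, which touched but did not cross.

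**Figure D3:**
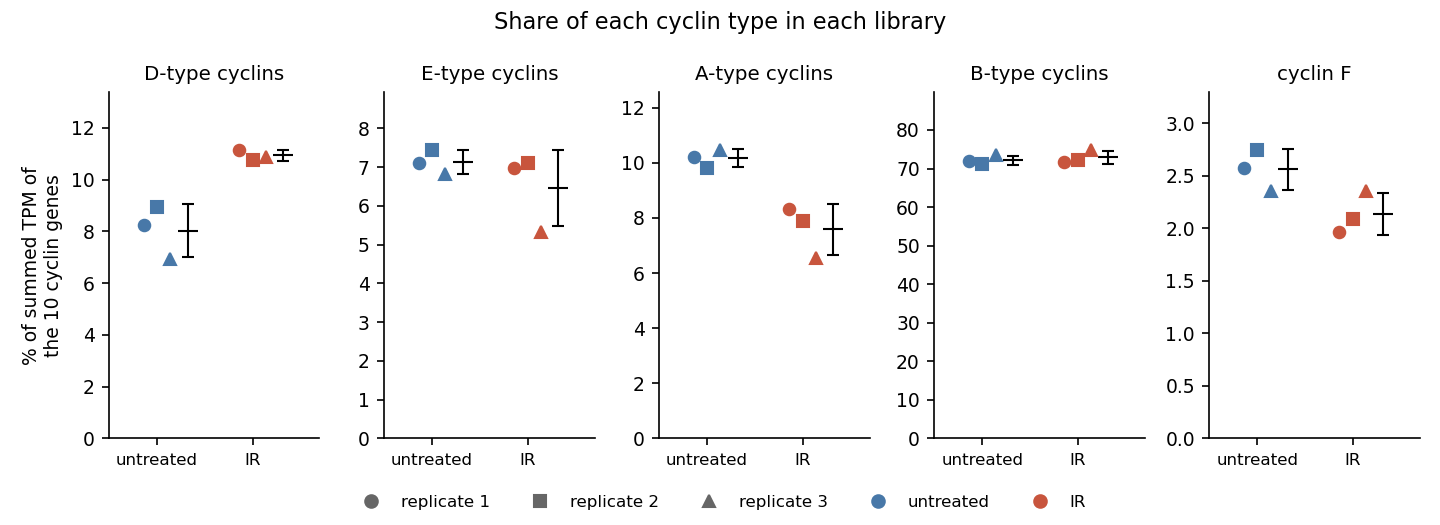
Share of each cyclin type in the summed TPM of the 10 cyclin genes (y axis, percent, from 0) in each library, with markers by replicate and black bars for the mean ± SD of 3 libraries. The D-type share is higher in all 3 IR libraries (10.8% to 11.2%), the A-type share is lower (6.56% to 8.32%), and the B-type share overlaps.

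Because the files hold transcripts, a sum per gene could hide a shift between them. Transcript usage was tested by edgeR's diffSpliceDGE in 10666 genes, of which 2.67% were called, and 0 of the 8 cyclins tested were called. None of the 8 had an unadjusted P below 0.05 either, the lowest being 0.0854 for CCND2, and no other tool was run. With transcripts kept at 10 counts or more in every library of a group, the unadjusted P of CCND2 was 0.0381 (adjusted P = 0.40, edgeR's diffSpliceDGE). In CCND2 the canonical transcript ENST00000261254 held 70.5%, 68.8% and 59.8% of the gene's TPM in untreated and 76.3%, 82.6% and 87.0% in IR libraries, whose values lay above the untreated ones. CCNA2 had a single transcript among those matched, so such a shift could not be measured in it.

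The transcripts show where the TPM of CCNB1, CCNE1 and CCNE2 came from. The leading CCNB1 transcript was ENST00000506572 (1331 bases), at 410, 373 and 417 TPM in untreated and 370, 342 and 409 TPM in IR libraries, and the canonical ENST00000256442 (2029 bases) stood at 42.2 to 50.4 TPM throughout. The retained-intron transcript ENST00000513102, of only 463 bases, held 134, 132 and 163 TPM in untreated and 122, 131 and 219 TPM in IR libraries, and its highest value was in IR replicate 3. CCNE1 was spread over 5 transcripts of at least 1 TPM on average. Of these, ENST00000576532 was at 14.9 to 17.5 TPM in 5 libraries and at 0 in IR replicate 3, where ENST00000444983 and ENST00000262643 were at their highest. The gene sum of CCNE1 was steady across this reassignment, at 55.5 to 61.3 TPM. In CCNE2 the short ENST00000521809 (592 bases) was uneven, at 0, 5.41 and 6.10 TPM in untreated and 0, 0.825 and 0 TPM in IR libraries. The canonical ENST00000308108 was at 10.9, 9.21 and 10.6 TPM in untreated and 6.08, 6.25 and 7.18 TPM in IR libraries. The part of the short transcript in the CCNE2 value with the length offset was not tested.

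**Figure D4:**
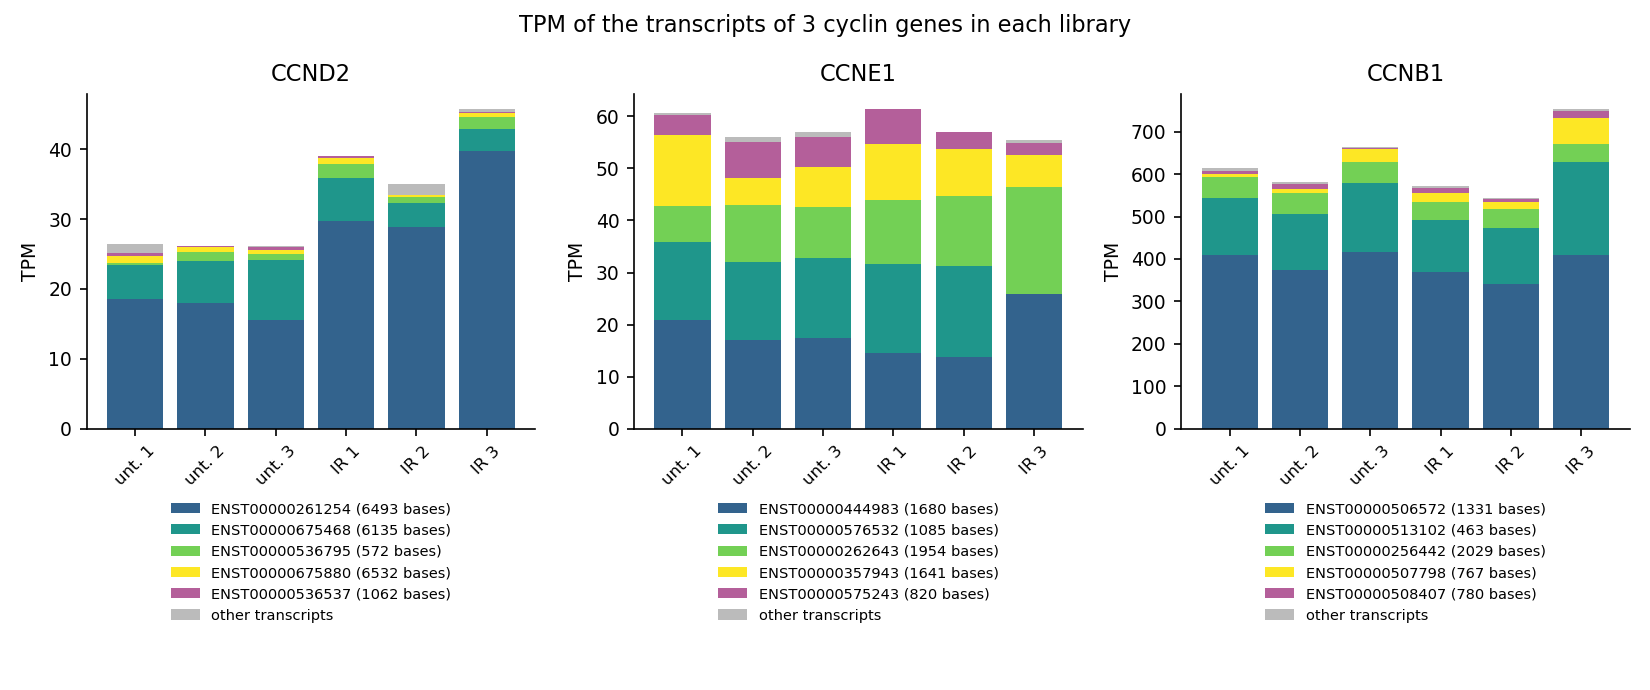
TPM (y axis, from 0) of the 5 most abundant transcripts and of all others together for CCND2, CCNE1 and CCNB1 in each library (unt., untreated). The CCND2 bars are taller in IR libraries, mainly through ENST00000261254, the CCNE1 bars keep their height although ENST00000576532 is at 0 in IR replicate 3, and the CCNB1 bar of IR replicate 3 is the tallest.

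Of the 4 CDKs that these cyclins activate, 1 was called lower, beside 14.5% called lower and 15.5% called higher of all tested genes. CDK6, a partner of the D-type cyclins, fell by 0.35 on the log2 scale (256.4, 272.6 and 256.6 against 224.6, 203.3 and 189.3 CPM, adjusted P = 0.00742, edgeR's quasi-likelihood test), opposite in direction to CCND1 and CCND2. CDK1, CDK2 and CDK4 were not called, with log2 fold changes of −0.13, −0.01 and 0.07. The CDK6 call was lost with the length offset (adjusted P = 0.0538) and with a replicate block plus GC correction (adjusted P = 0.0518), both in edgeR's quasi-likelihood test.

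Of 18 genes that act in the degradation of cyclins or its control, 1 was called higher, 4 were called lower and 13 were not called, beside 15.5% called higher and 14.5% called lower of all tested genes, and their median log2 fold change was 0.00. SKP2, the F-box protein that targets the CDK inhibitor p27, fell by 0.46 on the log2 scale (122.8, 114.8 and 115.4 against 88.66, 82.95 and 84.8 CPM). FBXO5, which encodes the inhibitor EMI1 of the anaphase-promoting complex, also fell by 0.46, and the ubiquitin ligase scaffolds CUL3 and CUL4B, named after their values were seen, by 0.36 and 0.24. The call of CUL4B was lost without untreated replicate 2 (−0.24) and, as that of CUL3, with the GC trend removed. FBXW7, the F-box protein that recognizes cyclin E, rose by 0.39 (29.76, 31.37 and 29.95 against 40.32, 42.14 and 37.11 CPM). This rise was absent with the length offset, at −0.03. AMBRA1, the substrate receptor for D-type cyclins, was not called (log2 fold change 0.11, 95% CI −0.09 to 0.31, adjusted P = 0.365, edgeR's quasi-likelihood test).

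Among 8 genes whose proteins are known substrates of cyclin F, 5 were called lower (14.5% of all tested genes were) and 3 were not called, and the median log2 fold change was −0.30. RRM2, the small subunit of ribonucleotide reductase, fell by 0.51 on the log2 scale (364.7, 358.4 and 395.4 against 267.2, 264.7 and 254.5 CPM). EXO1, a DNA exonuclease, fell by 0.46, NUSAP1, a spindle protein, by 0.45, CCP110, a centriole protein, by 0.39, and the transcription factor gene MYBL2 by 0.22. In 7 of the 8 genes the groups did not overlap, against 47.1% of all tested genes. Without IR replicate 3, 6 of the 8 were called lower. The call of MYBL2 was lost in 7 of 14 settings, among them without each of the 3 untreated libraries (−0.19 to −0.23) and without IR replicate 1 or 2 (−0.19 and −0.23). RRM2, EXO1 and the uncalled CDC6 and SLBP are also among the S phase genes listed below, and NUSAP1 is among the G2/M genes. In those lists, 25 of 42 and 39 of 53 genes were called lower.

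The remaining cyclin genes were divided. The 8 genes grouped as transcriptional cyclins are mostly known for acting with kinases on RNA polymerase II or in splicing, and not as a clock of the cell cycle. Among them, 1 was called higher, 2 were called lower and 5 (CCNC, CCNH, CCNK, CCNL1 and CCNL2) were not called. Their median log2 fold change was −0.07. Of all tested genes, 15.5% were called higher and 14.5% lower. CCNT1 and CCNT2, the alternative cyclin subunits of the elongation factor P-TEFb, fell by 0.38 and 0.35, and CCNQ, the partner of CDK10, rose by 0.37. The calls of CCNT2 and CCNQ were lost with the length offset, that of CCNT2 also without untreated replicate 2 or 3 (−0.36 and −0.30), and both with the GC trend removed (log2 fold changes −0.19 and 0.18). CCNT2 was also called for a change of transcript usage (adjusted P = 5.34e-05, edgeR's diffSpliceDGE).

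Of 12 other genes of the cyclin family, 9 were tested, 2 were called higher, 1 was called lower and 6 (CCNB3, CCNG2, CCNI, CCNJL, CCNY and CCNYL1) were not called. The shares over all tested genes were 15.5% called higher and 14.5% called lower. CCNG1, a p53 target, was measured at 96.42, 78.16 and 104.5 CPM in untreated and at 105.5, 116.3 and 164.3 CPM in IR libraries. Its log2 fold change of 0.47 (adjusted P = 0.0443, edgeR's quasi-likelihood test) rested on IR replicate 3, without which it was 0.24 and not called (adjusted P = 0.107). The same library carried CCNO, at 0.73 with all libraries and 0.44 without it, and CCNJ, whose role is less well known, fell by 0.24. Without IR replicate 3, neither CCNO nor CCNJ was called (adjusted P = 0.145 and 0.0598, edgeR's quasi-likelihood test), and over 14 settings the calls of CCNG1, CCNO and CCNJ were lost in 6, 8 and 11 of them.

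Genes of S phase and of G2/M, taken from the lists distributed with Seurat and leaving out the cyclins, were mostly called lower. Of 42 S phase genes, 25 were called lower and 17 were not called (median log2 fold change −0.25), and of 53 G2/M genes 39 were called lower, 1 was called higher and 13 were not called (median −0.39). Beside this, 14.5% of all tested genes were called lower and 15.5% higher. Some genes named above are also in these lists, among them CDK1, RRM2, EXO1 and NUSAP1. The G2/M genes ranged from −1.10 to 0.24, and the log2 fold changes of CCNB1 (−0.02) and CCNB2 (−0.08) lay within this range, above its median. The counts depended on the setting, with 12 to 27 S phase and 25 to 42 G2/M genes called lower over the alternatives, while the medians stayed between −0.27 and −0.22 and between −0.41 and −0.33. The difference between the cyclins and these lists was not tested.

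For the most abundant tested cyclin of each type, the genes of most similar pattern over the 6 libraries were sought among 10135 genes by Pearson's r of log2 CPM, which is given as a description because the points share the group difference and their libraries. CCND1 was most like FLYWCH1 (r = 0.999), COL6A2 (0.998) and RALB (0.996), each of which was higher after IR. CCNA2 was most like SUDS3 (0.999), ATMIN (0.997) and DCLRE1A (0.997), each of which was lower. For CCNE1, NDUFAF1 (0.987), HARS1 (0.971) and ADM2 (0.968) came first, for CCNB1, USP14 (0.973), GTF2H3 (0.970) and KANSL2 (0.967), and those named for CCNF were ZNF587 (0.991) and JADE2 (0.984), and none of these 8 genes was called.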

How the data were processed

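Bulk RNA was sequenced from U-2 OS cells in 3 untreated and 3 IR libraries (4 Gy, 24 h), grouped by the treatment label, and the labels give no batch. The labels name polyA RNA and an mRNA library kit, whereas the methods name a kit for total RNA. After adaptor removal with fastp, the authors assigned reads to GENCODE release 37 (GRCh38) by kallisto, and each deposited file gives an estimated count per transcript, without normalization. The authors also deposited TPM values, scaled for effective length and library total, and the length and effective length in bases. The sources do not state whether strand was used, so reads of overlapping antisense genes cannot be told apart.

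Of 161171 transcripts, 158711 were matched to GENCODE release 44, and the other 2460 were not used. The estimated counts of the transcripts of a gene were added up and rounded. Genes were kept by filterByExpr, scaled by TMM and tested by edgeR's quasi-likelihood test (edgeR 4.0.16, limma 3.58.1, R 4.3.3) with group as the only term (the study's methods name a generalized linear model of edgeR but neither the test nor its terms), with Benjamini–Hochberg adjustment over 14323 genes and a threshold of 0.05. SEs were obtained by dividing the size of the log2 fold change by the root of its F statistic. The fit pools the spread over genes (biological coefficient of variation 0.0931), and deeper libraries have less counting error. Single values were compared over libraries by exact permutation (two-sided, smallest possible P 0.1). Transcript usage was tested by diffSpliceDGE with Simes P values. Log2 CPM for likeness used a prior count of 2. Alternatives were the low-count filter, DESeq2 1.42.0 size factors and Wald test, removal of each library's GC trend, a length offset, a replicate block and leaving out each library. Scripts were tested on simulated data.

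Both groups carry replicate numbers 1 to 3, but no source says that they mark a shared culture or batch. In each within-group pair the counts differed beyond sampling noise (lowest chi-square per gene 3.46), so that no library was taken as a copy of another. This does not show that they came from separate cultures. The submitters' name for the data of IR replicate 3 carries the mark "rep", which is not explained.

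Named genes were all 10 cyclins, each tested gene of the transcriptional, other family and CDK lists (values for those called), AMBRA1, FBXW7, SKP2 and the 3 called turnover genes of largest absolute log2 fold change, each called cyclin F substrate, CDKN1A and MDM2, and the 3 genes most like the most abundant tested cyclin of each type, of which 1 is not reported here. Lists of S phase and G2/M genes came from Seurat 5.3.0. Members, lists and tests were chosen with earlier results of these data known.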

Additional observations from a re-analysis of the deposited data

How the results depend on the processing

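Over 14 alternatives, CCND1 (0.41 to 0.56), CCND2 (0.58 to 0.70), CCNE2 (−1.02 to −0.52) and CCNA2 (−0.49 to −0.32) kept their direction and their call, and CCNE1 and CCNB2 stayed uncalled in one direction. CCND3 turned to −0.033 with the GC trend removed and to −0.030 with a replicate block and GC correction. CCNB1 turned to 0.081 with the GC trend removed, 0.046 with the length offset, 0.076 with the replicate block and GC correction, 0.0084 without untreated replicate 3 and 0.0077 without IR replicate 2, and ranged from −0.090 to 0.0084 over the libraries left out. The call of CCNF was lost with the length offset (−0.24), with the replicate block (−0.30, adjusted P = 0.0503 in edgeR's quasi-likelihood test) and without untreated replicate 1 or 2 or IR replicate 1 or 2 (−0.24 to −0.28). The causes were not tested. Genes called lower numbered 2 or 3 and genes called higher 2 under each alternative. The B-type share of cyclin TPM, 0.77 percentage points higher after IR, became −1.12 with the leading transcripts only and −0.23 to 1.42 with a library left out, and the D-type difference became 5.18 with the leading transcripts only. Deviations of same-numbered libraries from their group means did not correlate (r = −0.02, 0.01 and −0.05). With 3 libraries per group this cannot show whether the numbers mark a shared culture or batch. The replicate block took calls over all genes from 2227 higher and 2080 lower to 1727 and 1624. With the length offset these were 833 and 875, and without untreated replicates 1, 2 and 3 they were 1295 and 1287, 1357 and 1244, and 1487 and 1530. No alternative moved the median of all genes by over 0.1. CCNA1, with 1 estimated count in untreated replicate 1 and 0 in each other library, could not be tested.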
